A study of Mus musculus with 10 samples.

Results

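The natriuretic peptide system was examined in the mouse left ventricle as the 7 genes Nppa, Nppb, Nppc, Npr1, Npr2, Npr3 and Corin. They were chosen by gene symbol in the platform annotation and were carried by 9 of 22393 array features, or 7 of 16504 named genes. RNA of the lateral wall and RNA of the septal wall of the same left ventricle were hybridised together on 2-colour arrays. The hearts were 4 dyssynchronous mouse hearts, numbered 1, 3, 4 and 5 in the labels, whose walls no longer contract together and whose state the design ties to an implanted pacemaker. The comparison sample was 1 control pool of lateral RNA and 1 of septal RNA from synchronous mice, so the control has no replicate. The same pair of RNAs was hybridised again after a dye exchange, giving 2 arrays for each of the 4 hearts and for the pool, 10 in all. The pool's source names abbreviate the walls to a letter, read here as L for lateral and S for septal. The labels name no strain, sex, age or pacing scheme and do not say how many mice were pooled.

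The natriuretic peptides ANP and BNP are hormones that the heart releases when its walls are stretched, and they lower blood pressure and volume. Nppa encodes the atrial peptide ANP, Nppb the B-type peptide BNP and Nppc the C-type peptide CNP. Corin is the cell-surface protease that cuts the ANP precursor. Npr1 and Npr2 are receptor guanylyl cyclases that raise cGMP, the first for ANP and BNP and the second for CNP, while Npr3 binds all of these peptides and removes them. In the adult heart Nppa is made chiefly in the atria, and the ventricle makes more of Nppa and Nppb under load.

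Nppb and Nppa are neighbours on chromosome 4, with 0 other genes of the RefSeq table lying wholly between them. Their promoters are shown because these neighbours gave different wall ratios. Each sequence is the 250 bases before the gene's start, 5′ to 3′ on the plus strand, from RefSeq on build GRCm38.p6, at chr4:148000472-148000721 for Nppa and chr4:147985650-147985899 for Nppb. Capitals mark GATAA (the GATA factor core), AAGTG (a core of NKX2-5 sites), CATTCC (the M-CAT motif of TEAD factors) and TATAAA (the TATA box), on either strand.
Nppa: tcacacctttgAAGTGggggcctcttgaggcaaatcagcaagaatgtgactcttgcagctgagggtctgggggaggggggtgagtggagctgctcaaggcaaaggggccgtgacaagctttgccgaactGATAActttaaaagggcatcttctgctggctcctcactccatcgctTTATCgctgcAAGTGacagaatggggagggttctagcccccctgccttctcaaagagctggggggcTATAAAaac
Nppb: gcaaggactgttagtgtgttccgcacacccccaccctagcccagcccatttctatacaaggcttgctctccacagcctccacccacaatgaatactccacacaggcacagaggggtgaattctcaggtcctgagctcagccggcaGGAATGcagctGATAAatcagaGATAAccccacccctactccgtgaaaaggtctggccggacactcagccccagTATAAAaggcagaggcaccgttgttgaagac
Both windows held 2 matches to the GATA core, which began 121 and 75 bases before the start in Nppa and 94 and 83 bases before it in Nppb. Both also held the TATA box letters, which began 9 bases before the annotated start in Nppa and 31 bases before it in Nppb. The NKX2-5 core was found only in Nppa among the 7 members, and the M-CAT motif, on the opposite strand, only in Nppb. Of 32851 RefSeq promoter windows of this length, 22.6% held the GATA core, 40.7% the NKX2-5 core, 12.6% the M-CAT motif and 12.4% the TATA box, and the matches in Nppa and Nppb do not overlap each other. A match is a description of the letters and not evidence of binding.

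Wall ratios are given on the log2 scale with the lateral wall over the septal one, so a negative value is higher in the septal sample. They are ratios and not levels: channel intensities were not analysed here, so how strongly a gene was expressed in either wall, and whether a feature was above background, is unknown. The deposited values were read as log10 of the Cy5 signal over the Cy3 signal and turned by the dye labels, a direction that the labels leave unstated and that is therefore likely rather than certain. The members divide on it. As deposited, the Nppa values of heart 1 were -1.51 and 1.20, and those of heart 5 were -2.40 and 2.14, so they changed sign when the dyes were exchanged. Those of Npr1 kept their sign, at 0.62 on both arrays of heart 1, -1.06 and -0.36 in heart 3, -0.91 and -0.30 in heart 5 and 0.48 and 0.78 in the pool. Corin also kept its sign in hearts 1, 3 and 5 and in the pool. Over all genes the arrays of a pair as deposited correlated positively, at 0.17 to 0.35. How the members read if the values had already been turned is given with the other processing choices. In these bulk samples fewer cells of a type and less RNA per cell cannot be told apart.

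**Figure D1:**
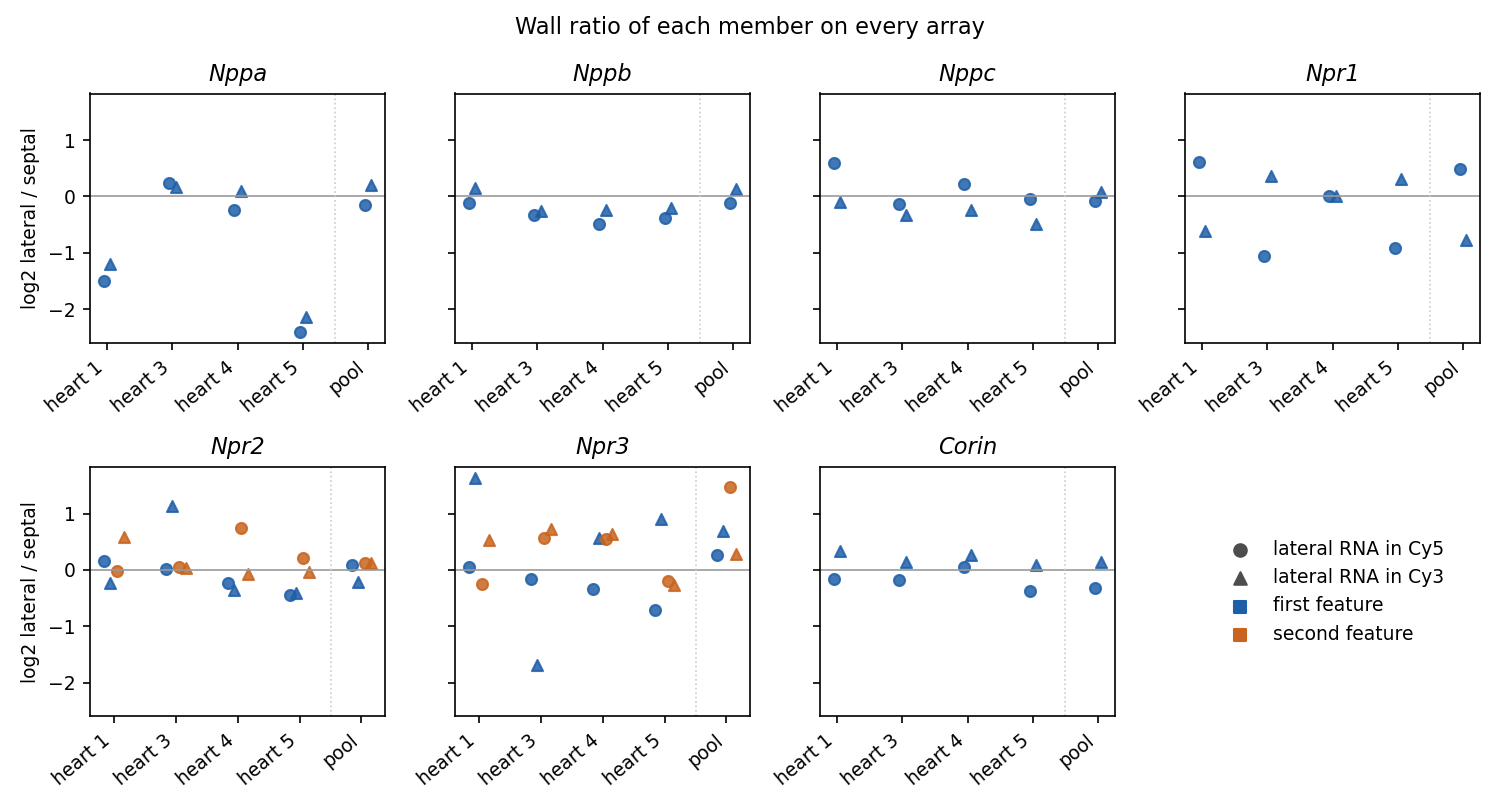
Log2 lateral over septal ratio (vertical axis) of each member on each of the 10 arrays, by heart and pool (horizontal axis). Circles have lateral RNA in Cy5 and triangles lateral RNA in Cy3, and Npr2 and Npr3 have a first feature (blue, features 13219 and 9829) and a second one (orange, features 22508 and 15227). Nppa lies between -2.40 and -1.20 on the 4 arrays of hearts 1 and 5 and between -0.25 and 0.24 on the other arrays.

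Nppa was much higher in the septal sample in hearts 1 and 5 and lay close to equality elsewhere. In heart 1 its ratio was -1.51 with lateral RNA in Cy5 and -1.20 with the dyes exchanged. In heart 5 the values were -2.40 and -2.14. In heart 3 they were 0.24 and 0.17, in heart 4 they were -0.25 and 0.10, and in the pool they were -0.15 and 0.19. Averaged over both arrays, septal Nppa was 2.55-fold above lateral Nppa in heart 1 and 4.83-fold above it in heart 5. Heart 3 was 1.15-fold higher laterally, heart 4 was 1.05-fold higher septally and the pool 1.02-fold higher laterally. The hearts therefore fell on both sides of the pool, with hearts 1 and 5 far below it.

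Counted from the septal end, the Nppa ratio ranked 9 of 16504 genes in heart 5 and 29 in heart 1. The rank holds for the direction used: with the values taken as already turned, Nppa stood at -0.13 in heart 5 and -0.16 in heart 1 (limma, adjusted p 1 in both). Nppa was septally higher by more than 1.5-fold on each of the 4 arrays of hearts 1 and 5, where 0.654% and 0.976% of all genes passed that limit on both arrays of the heart. No other member passed it, on either side, in any heart or in the pool. The septal share of all genes was 1.35% in heart 3, 1.44% in heart 4 and 0.576% in the pool, and the lateral share was 0.57%, 0.994%, 0.854%, 1.01% and 0.6% in hearts 1, 3, 4 and 5 and the pool. In a limma fit of the single arrays with a dye term, the heart 5 ratio of -2.27 ± 0.11 (SE) passed at an adjusted p of 0.00887, in a test that called 0.0424% of genes. The heart 1 ratio of -1.35 ± 0.11 (SE) did not pass (adjusted p 0.130), in a test that called 0.0182% of genes. The tests of heart 3 (0.00606% of genes called), heart 4 (0.0121%) and the pool (0%) called 0 of the 7 members. With the arrays brought to a common spread the heart 1 ratio was -1.77 and passed narrowly (adjusted p 0.0494). Both arrays of a heart carry the same RNA, so this error is technical and speaks for that heart alone.

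The hearts differed from one another in Nppa by up to 2.47 log2 units, against a mean difference of 0.27 between the arrays of a heart. In the limma F test of a common ratio in the 4 hearts, Nppa had the second lowest p of 16504 genes (F = 115, unadjusted p 3.28e-05). After adjustment it did not pass (adjusted p 0.190), in a test that called 0% of genes at this size, with 700 genes at an unadjusted p under 0.05.

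Nppb, the neighbour of Nppa, had small ratios that leaned to the septal side in hearts 3, 4 and 5. Its values with lateral RNA in Cy5 were -0.11, -0.33, -0.485 and -0.38 in hearts 1, 3, 4 and 5, and with the dyes exchanged they were 0.14, -0.26, -0.24 and -0.21. Of the 8 arrays of the hearts 7 were below 0. The pool gave -0.12 and 0.13. Heart 1, where the Nppa ratio was low, was the heart with the Nppb ratio nearest to 0 (0.02), and heart 5 did not stand apart from hearts 3 and 4.

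Set against that of Nppb on the same array, the Nppa ratio was low in hearts 1 and 5. The differences were -1.40 and -1.34 log2 units on the arrays of heart 1 and -2.02 and -1.93 on those of heart 5. In heart 3 the Nppa ratio lay 0.57 and 0.43 above that of Nppb, and in heart 4 it lay 0.24 and 0.33 above it. The pool differences were -0.03 and 0.06. This difference between the neighbours thus had the same sign on both arrays of each heart, with opposite signs in hearts 1 and 5 and in hearts 3 and 4. These differences were not tested.

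Nppc, the gene of the C-type peptide, which acts on blood vessels and growing bone, was near equality. Its ratios with lateral RNA in Cy5 were 0.60, -0.14, 0.22 and -0.05 in hearts 1, 3, 4 and 5. With the dyes exchanged they were -0.11, -0.33, -0.24 and -0.48. The pool gave -0.07 and 0.08. In hearts 1 and 4 the arrays disagreed in sign, and the heart means of 0.25, -0.24, -0.01 and -0.27 spread on both sides of the pool.

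Of the receptors, Npr1 and Npr3 differed most between dye orientations among the members. Npr1, the guanylyl cyclase that answers ANP and BNP, had ratios of 0.62, -1.06, 0 and -0.91 in hearts 1, 3, 4 and 5 with lateral RNA in Cy5 and of -0.62, 0.36, 0 and 0.30 with the dyes exchanged. In the pool it had 0.48 and -0.78. Both arrays of heart 4 hold an exact 0, whose meaning is not stated, and on every other pair the sign turned with the orientation, so the averages of 0, -0.35, 0 and -0.30 rest on arrays that contradict each other. The mean difference between orientations was 1.03 log2 units, against a median of 0.52 over all genes, and 81.4% of genes had a smaller one.

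Npr2, the guanylyl cyclase for CNP, had 2 features with the same transcript accession. The first gave heart means of -0.03, 0.57, -0.30 and -0.42 in hearts 1, 3, 4 and 5 and -0.07 in the pool, and its heart 3 value rests on 1.13 on one array and 0.01 on the other. The second gave 0.28, 0.05, 0.34 and 0.09, and 0.12 in the pool. The features agreed in sign only in heart 3. Averaged over both features, Npr2 lay between -0.16 and 0.31 in the hearts.

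Npr3, the clearance receptor, also had 2 features of one accession. The first ranged from -1.68 to 1.62 over the arrays, both extremes with lateral RNA in Cy3, and its heart means were 0.83, -0.92, 0.12 and 0.10 with 0.48 in the pool. The second gave heart means of 0.14, 0.65, 0.59 and -0.23 with 0.87 in the pool, and its arrays agreed in sign in hearts 3 (0.57 and 0.73), 4 (0.55 and 0.63) and 5 (-0.20 and -0.26). Averaged over features, the hearts stood at 0.49, -0.14, 0.35 and -0.07, and the pool, at 0.68, lay above all of them. In the pool the second feature gave 1.47 with lateral RNA in Cy5 and 0.28 with the dyes exchanged, and the first gave 0.26 and 0.69. Npr3 was the only member whose pool value fell outside the range of the hearts. The share of all genes so placed was not counted, so this placing is not read as a trait of Npr3.

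Corin showed the smallest spread between hearts, with an SD of 0.13. Its ratios with lateral RNA in Cy5 were -0.16, -0.17, 0.05 and -0.38 in hearts 1, 3, 4 and 5 and -0.31 in the pool. With the dyes exchanged they were 0.34, 0.14, 0.26 and 0.09, and 0.14 in the pool. Every array with lateral RNA in Cy3 gave the higher value of its pair, and only in heart 4 did the arrays share a sign. The averages of 0.09, -0.02, 0.16 and -0.15 were close to 0, and heart 5, with the lowest Nppa ratio, had the lowest Corin ratio.

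**Figure D2:**
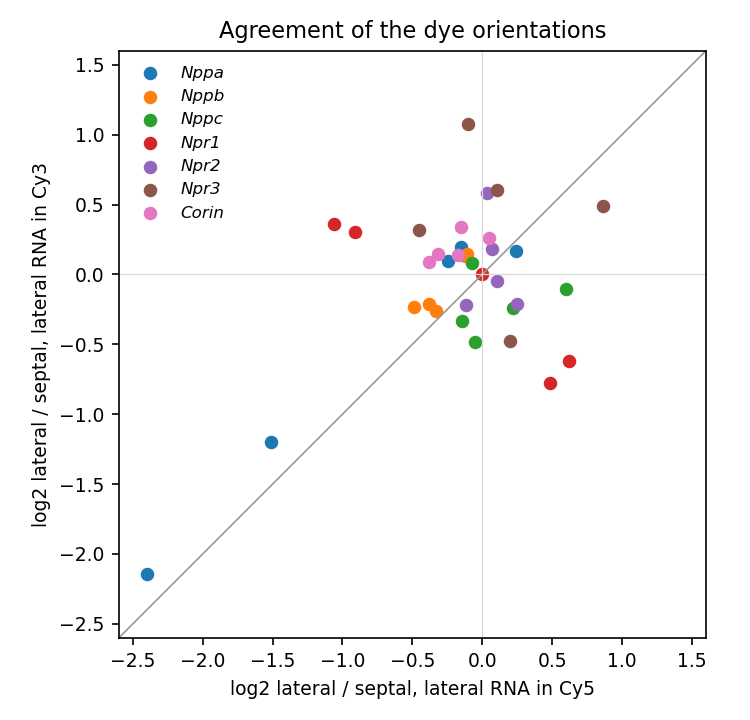
Ratio with lateral RNA in Cy3 (vertical axis) against the ratio with lateral RNA in Cy5 (horizontal axis), both as log2 lateral over septal. Each point is 1 member in 1 heart or the pool, with the features of a gene averaged, and the line marks equality. The Nppa points of hearts 1 and 5 lie near the line far from 0, and the Npr1 points of hearts 1, 3, 5 and the pool lie across it with opposite signs.

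The dye orientations agreed to differing degrees among the members. The mean difference between the arrays of a heart or the pool was 0.20 for Nppb, 0.27 for Nppa, 0.28 for Npr2, 0.39 for Nppc and for Corin, 0.70 for Npr3 and 1.03 for Npr1. The range of the heart means was larger than this for Nppa (2.47), Nppb (0.38), Nppc (0.51) and Npr2 (0.47). It was smaller for Npr1 (0.35), Npr3 (0.62) and Corin (0.30). A dye effect shared by all pairs enters the difference between arrays but cancels in the heart means, so setting them side by side is not a test. In the limma F test, which has a dye term, the unadjusted p was 0.20 for Nppc and 0.22 for Corin.

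The first comparison asked whether the walls differ in the dyssynchronous hearts as a group. Nppa had a mean of -0.87 ± 1.15 (SD, n = 4 hearts), which became -0.41 without heart 5, and Nppb of -0.23 ± 0.17. Nppc stood at -0.07 ± 0.24, Npr1 at -0.16 ± 0.19, Npr2 at 0.07 ± 0.20, Npr3 at 0.16 ± 0.31 and Corin at 0.02 ± 0.13. limma on the mean of both orientations, with Benjamini-Hochberg adjustment over all genes, called 0 of the 7 members, in a test that called 0% of genes, and Nppb was the only member with an unadjusted p under 0.05 (0.0436, adjusted p 0.797, septal in 3 of 4 hearts). Over all genes 934 had an unadjusted p under 0.05. The unadjusted 95% interval of the mean ran from -2.13 to 0.38 for Nppa and from -0.46 to -0.01 for Nppb, while the 5 other members' intervals lay between -0.40 and 0.52. No member had one sign in all 4 hearts, where 7.63% of genes were below 0 and 7.8% above 0 in every heart. With 4 hearts an exact sign-flip permutation test cannot give a two-sided p below 0.125.

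The second comparison set the dyssynchronous hearts against the synchronous pool. The difference from the pool was -0.90 for Nppa, -0.52 for Npr3, -0.24 for Nppb and between -0.07 and 0.11 for Nppc, Npr1, Npr2 and Corin. That of Npr3 was -0.92 with lateral RNA in Cy5 alone and -0.105 with lateral RNA in Cy3 alone. limma called 0 of the 7, in a test that called 0% of genes, with 0 members and 783 genes at an unadjusted p under 0.05. The pool is 1 sample and was assumed to vary like 1 heart. The interval of the difference ran from -3.70 to 1.91 for Nppa and from -1.31 to 0.28 for Npr3. For Nppb it ran from -0.74 to 0.26.

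**Figure D3:**
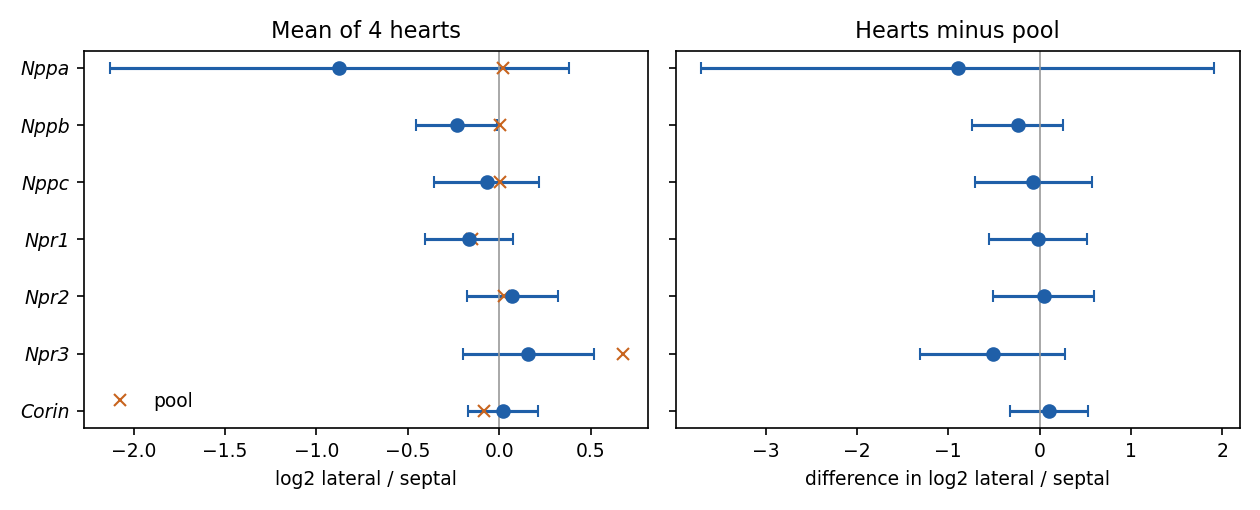
Members on the vertical axis with the mean log2 lateral over septal ratio of the 4 hearts (left, points) and the difference of hearts and pool (right, points). Bars are unadjusted 95% intervals of the limma fit and crosses are the pool. The Nppa interval is the widest, from -2.13 to 0.38 for the mean. The Npr3 pool value of 0.68 lies beyond the interval of the mean of its hearts, which leaves out the error of the pool. For the difference of hearts and pool, the Npr3 interval spans both signs, from -1.31 to 0.28.

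Several genes of atrial muscle had low ratios in the hearts where the Nppa ratio was low. Myl7, the atrial regulatory myosin light chain, had ratios of -5.18, -3.36, -3.53 and -6.10 for hearts 1, 3, 4 and 5 in turn, against -0.12 for the pool. Myl4, the atrial essential light chain, was at -2.35, -1.07, -0.95 and -4.17, and at -0.47 in the pool. Mybphl, a myosin-binding protein of atrial muscle, was at -2.14, 0.22, -0.42 and -3.10, and at 0.18 in the pool. Hearts 1 and 5 were thus the lowest hearts for all 3 genes, as for Nppa. Myl7 differed from Nppa in hearts 3 and 4, where it stood at -3.36 and -3.53 while Nppa stood at 0.20 and -0.08.

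The order of the hearts varied over the other atrial markers. Of 18 measured atrial markers in a list of 20, 4, 3, 4 and 5 were more than 1.5-fold higher septally in hearts 1, 3, 4 and 5 and 1 was so in the pool. Of all genes 2.96%, 6.79%, 6.45%, 4.21% and 3.35% were so. The list's median was -0.01, -0.14, -0.01 and -0.26 in the hearts and -0.05 in the pool, against a median of 0 or -0.001 over all genes. limma called 0 of the 18 in the first comparison, and their mean ratios ran from -4.54 to 0.27. In the fit of single arrays with the heart as replicate block, which called 20 genes, Myl7 (adjusted p 0.00686) and Dkk3 (adjusted p 0.0356) passed in limma. The estimated correlation between arrays of a heart was -0.049 in that fit. It therefore counted the 2 arrays of the same RNA almost as separate replicates. With 1 value per heart neither gene passed (limma, adjusted p 0.732 and 0.797). Dkk3, a Dickkopf family protein, was at -2.74, -1.13, -3.29 and -3.69 and so was low in heart 4 as well. Gja5, a connexin, stood at -0.01 and -0.05 in hearts 1 and 5 and at 0.25 and 0.42 in hearts 3 and 4. Bmp10, a growth factor of atrial muscle, was at 0.23 in heart 1 and -0.17 in heart 5, and Sln, the atrial inhibitor of the calcium pump, holds exact zeros on 5 of the 10 arrays. The part of atrial tissue in the Nppa ratios was not tested.

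**Figure D4:**
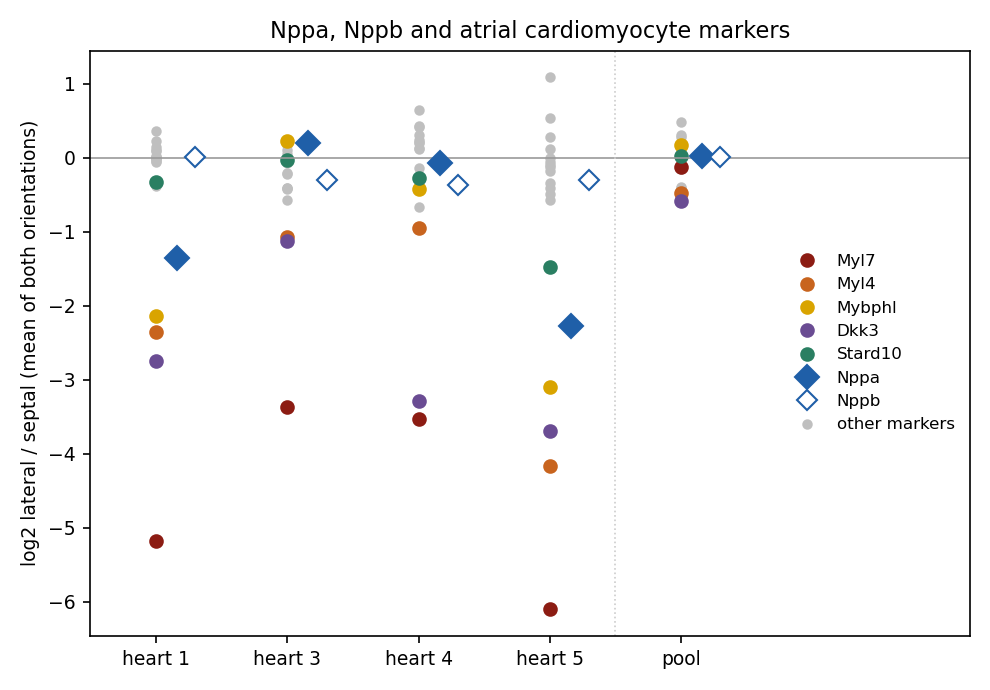
Log2 lateral over septal ratio, mean of both orientations (vertical axis), of Nppa and Nppb (diamonds) and the 18 measured atrial cardiomyocyte markers (circles) in each heart and the pool (horizontal axis). Nppa is at -1.35 and -2.27 in hearts 1 and 5, where Myl7, Myl4, Mybphl and Dkk3 are also low, and Nppb stays between -0.36 and 0.02. In hearts 3 and 4 Myl7 (-3.36 and -3.53) and Dkk3 (-1.13 and -3.29) are low as well, where Nppa is not. Of the 18 markers, 4 in heart 1 and 5 in heart 5 are more than 1.5-fold higher septally.

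The genes most like Nppa were sought among 2172 genes without exact zeros whose hearts spanned at least 1 log2 unit. By Pearson correlation over the 10 arrays, which are 5 pairs of the same RNA, they were Myl4 (0.97), Stard10 (0.89), Mybphl (0.84), Ccdc13 (0.79) and Myl7 (0.78). All of these but Ccdc13 are on the atrial list. That list was chosen with earlier results of these data known, so the overlap is not independent of these ratios. Stard10, a lipid transfer protein, had ratios of -0.32, -0.03, -0.27 and -1.48 for hearts 1, 3, 4 and 5 in turn, and Ccdc13 of -0.26, 0.25, 0.28 and -1.71, so both were low chiefly in heart 5. For Nppb, with a span of at least 0.5 and 5458 candidates, the genes were Zdhhc14 (0.92), Rgmb (0.84), Kctd7 (0.83), Tmem164 (0.83) and Olfr748 (0.82).

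Genes that process and clear the peptides had small ratios, and limma called 0 of the 7 measured of 8 listed, with a median of -0.012 against 0.0026 over all genes. Mme, neprilysin, which degrades natriuretic peptides, had a mean of 0.17 ± 0.15 (SD, n = 4) and -0.49 in the pool. Pcsk6, the protease that activates corin, was at 0.21 ± 0.22, with 0.135 in the pool, and Pcsk5, a related convertase, at 0.16 ± 0.36. Ide, the insulin-degrading enzyme, was at -0.12 ± 0.10 and below 0 in all 4 hearts.

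Of the genes of cGMP signalling, 19 of 21 listed were measured, 0 were called, and the median was 0.02. Gucy1a1, a subunit of the nitric oxide receptor, was at 0.19 ± 0.11 and higher laterally in all 4 hearts. Ppp1r12a, the targeting subunit of myosin phosphatase, was at 0.11 ± 0.04, also in all 4. Rgs2, a regulator of G protein signalling that cGMP-dependent kinase acts on, was at 0.14 ± 0.15, and Pde5a, the cGMP phosphodiesterase, at 0.35 ± 0.45 with 0.84 in heart 1. Pde5a holds exact zeros on 3 arrays, and its mean became 0.74 with zeros taken as no value. With exact zeros averaged in as values, none of these ratios exceeded 2-fold in any heart. That limit does not hold for Pde5a in heart 1 when zeros are left out.

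The transcription factors known to act on Nppa and Nppb had medians of -0.02, -0.08, -0.0015 and -0.06 in hearts 1, 3, 4 and 5. In turn 0, 3, 1 and 0 of them were septally higher by more than 1.5-fold, against 2.96%, 6.79%, 6.45% and 4.21% of all genes. Of 18 listed, 17 were measured and limma called 0, with a median of -0.05 over the mean ratios. Rest, a repressor of the fetal cardiac genes, was at -0.20 ± 0.09 and below 0 in all 4 hearts. Myocd, the coactivator of serum response factor, was at -0.18 ± 0.15, also below 0 in all 4. Hand2 was at 0.16 ± 0.11 with -0.50 in the pool, and Tbx2, a repressor of chamber genes, was at -0.33 ± 0.37. Gata4, a factor for GATA motifs, was at 0.03, -0.005, -0.09 and -0.305 in hearts 1, 3, 4 and 5 and lower in the pool (-0.47). Nkx2-5 was at -0.05 ± 0.04, with -0.21 in the pool. Tbx5, a T-box activator that is also on the atrial list, holds 2 exact zeros. It was at 0.36, 0, -0.38 and 1.09 in the hearts and at 0.485 in the pool.

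Genes of load and of other cell types were read beside the peptides. Of 18 measured load and stretch genes of 22 listed, 0 were called and the median was -0.08. Ankrd1, a stretch-responsive titin partner, stood at -0.32, -0.73, -0.77 and -0.86 in hearts 1, 3, 4 and 5. In the pool it was at -0.51, inside the range of the hearts. It passed with the heart as replicate block (limma, adjusted p 0.0356) but not with 1 value per heart (adjusted p 0.797). Ccn2, a matricellular growth factor, stood at -0.50, -0.22, -0.15 and -1.14 (pool -0.08). Its relative Ccn1 was at -0.17, -0.0013, 0.0125 and -0.32 (pool -0.10). Mt2, a metallothionein, was at 0.30 ± 0.09, with 0.28 in the pool. Among ventricular markers (11 of 12 measured, 0 called, median 0.0012), Myh7, the slow myosin heavy chain, was at -2.74 in heart 5. It lay between -1.18 and -0.81 in the other hearts and at -0.82 in the pool. Kcne1 was at -0.55 ± 0.27 (pool -0.56). Myl2 and Myl3, the ventricular light chains, lay between -0.21 and 0.05 in every heart, with -0.19 and -0.33 in the pool.

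Trabecular and Purkinje markers had a median of -0.07 (15 of 17 measured, 0 called), and those with the highest absolute moderated statistic were Irx2 at -1.205 ± 0.30 (pool -1.53) and Pcp4 at -0.39 ± 0.13 (pool -0.84). Irx2 passed with the heart as replicate block (limma, adjusted p 0.0242) but not with 1 value per heart (adjusted p 0.721). Etv1, a transcription factor of fast-conducting muscle, was at -0.65, -0.19, -0.21 and -0.73 for hearts 1, 3, 4 and 5 in turn and at 0.0066 in the pool. Slit2, a guidance factor, was above 0 in all 4 hearts (0.70 ± 0.57, pool 0.60). Endocardial and endothelial markers had a median of -0.08 (15 of 15, 0 called), with Cytl1 at -0.66 ± 0.72 (pool 0.0033) and Pecam1 at 0.44 ± 0.60 (pool 0.07). Fibroblast markers had a median of -0.12 (12 of 12, 0 called), with Postn at -0.39 ± 0.30 (pool -0.03) and Col3a1 at 0.18 ± 0.17 (pool 0.03). Smooth muscle and pericyte markers had a median of 0.14 (12 of 12, 0 called). Cnn1 was at 0.85 ± 0.26, with 0.78 in the pool. It passed with the heart as replicate block (limma, adjusted p 0.0329) but not with 1 value per heart (adjusted p 0.732). Lmod1 was at 1.00 ± 0.43, with 1.06 in the pool. The part of these cell types in the members' ratios was not tested.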

How the data were processed

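Per the submitters' processing notes Agilent Feature Extraction 7.5 was used. The authors deposited 1 signed value per feature and array, read here as a log10 ratio of Cy5 over Cy3 because every array has a median of 0 and that program reports log10 ratios. For base, direction, dye normalization and filters nothing is stated. Values were multiplied by 3.32 to log2, signed to lateral over septal by the dye labels, and features of a gene averaged. Values of -2, none in a named feature, were taken as missing. Of 22393 features 18218 had 1 gene symbol, 16 several and 4159 none, and 18175 Entrez numbers matched the RefSeq table with 0 differing symbols.

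limma 3.58.1 (R 4.3.3, statmod 1.5.0) was fitted to 16504 genes with Benjamini-Hochberg adjustment at 0.05, two-sided. Both arrays of a heart are 1 replicate in the comparisons of groups. A single-array fit with a dye term gave the tests within and among hearts. The fits were tested on simulated data. The members and lists were chosen with earlier results of these data known. Beside the members, the text names per list the 4 genes (pathway lists) or 2 genes (others) of highest absolute moderated statistic, Myl7, Myl4 and the 5 genes most like Nppa and Nppb. Bmp10, Sln, Gja5, Etv1, Slit2, Ccn1, Ccn2, Tbx5, Gata4, Nkx2-5, Myl2 and Myl3 were also named, after their values were seen. The number of arrays limits the precision. Alternatives covered centring, scale, direction, dye orientation, zeros, features, moderation, the heart as a block and each heart left out.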

Additional observations from a re-analysis of the deposited data

Results flagged for a closer look

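Among the 4 hearts, 53 sets of values were examined for a heart far from the others, and 1 had one, where 2.65 are expected by chance. The ratio of Pcsk5, a proprotein convertase, was -0.38 for heart 4, while those of hearts 1, 3 and 5 ran from 0.31 to 0.39.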

How the results depend on the processing

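Subtracting array medians, treating exact zeros as missing, robust moderation and fitting the hearts without the pool changed no direction or call among the members. With 1 orientation alone, lateral RNA in Cy5 turned Nppc to 0.15, Npr3 to -0.062, Corin to -0.16, Mme to -0.43, Pcsk5 to -0.86, Rest to 0.14, Myocd to 0.023 and Rgmb to -0.30, and the difference from the pool of Nppc to 0.23 and of Npr2 to -0.047. Lateral RNA in Cy3 turned Npr1 to 0.011, Pcsk6 to -0.46, Ppp1r12a to -0.070, Rgs2 to -0.11, Zdhhc14 to 0.033, Kctd7 to 0.043, Tmem164 to 0.44 and the Npr1 difference to 0.79. A common spread turned that difference to 0.17 and gave 9, 0, 0 and 4 genes called within hearts 1, 3, 4 and 5, against 3, 1, 2 and 7. The first Npr2 feature alone gave -0.046. With a heart left out, Corin ran from -0.024 (without heart 4, and -0.0026 without heart 1) to 0.077, Npr2 from -0.0070 (without heart 3) to 0.15, Rgmb from -0.099 (without heart 1) to 0.33 and Ccdc13 from -0.57 to 0.090 (without heart 5), while the difference from the pool ran from -0.070 to 0.046 for Npr1 (positive without heart 3 or 5) and from -0.035 (without heart 3) to 0.12 for Npr2. The Nppa mean ran from -1.23 without heart 3 to -0.41 without heart 5, and it was -1.14 without heart 4. A fit of single arrays with a dye effect and hearts as replicate block called 20 genes in the first comparison and 3 in the second. Of these 0 were members (limma, adjusted p 0.664 for Nppa and 0.497 for Nppb), but Myl7, Dkk3, Irx2, Ankrd1 and Cnn1 were among those called. The estimated correlation was -0.049, so the 2 arrays of a heart, which carry the same RNA, counted almost as separate replicates. Statistics without moderation called 1 gene in the second comparison, with 51 genes without spread left untested, and omitting the dye term left 1 gene called in heart 4. The cause of these changes was not tested.

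If the values were already turned, the Nppa mean would be -0.10, its heart 5 ratio -0.13, and the means of Myl7, Myl4, Myh7 and Ankrd1 -0.11, -0.082, -0.096 and -0.015, with 83 and 62 genes called in hearts 3 and 4. The ratios would be 0.22 for Nppc, -0.012 for Npr2, -0.22 for Npr3, -0.18 for Corin, -0.60 for Mme, -1.02 for Pcsk5, 0.34 for Rest, -0.11 for Hand2, 0.21 for Myocd, 0.25 for Dkk3, 0.18 for Kcne1, 0.20 for Irx2, -0.023 for Col3a1, 0.30 for Mybphl, 0.16 for Ccdc13 and -0.40 for Rgmb. The differences from the pool would be 0.069 for Nppa, 0.036 for Nppb, 0.30 for Nppc and -0.090 for Npr2.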
